A study of Mus musculus with 8 samples.

Results

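The genes described here are 8 that encode chondroitin sulfate proteoglycans and tenascins of the glial scar, ACAN (aggrecan), BCAN (brevican), NCAN (neurocan), VCAN (versican), CSPG5 (neuroglycan C), PTPRZ1 (the receptor phosphatase whose secreted form is phosphacan), TNC (tenascin-C) and TNR (tenascin-R). They were taken by name from the deposited table of read counts, which gives mouse symbols in capitals, and all 8 were among its 13937 genes and among the 13509 that passed the filter on low counts. RNA was sequenced from primary astrocytes of 1-day-old C57BL/6 pups, either wild type (WT) or RGC-32 KO (also KO), the latter lacking the response gene to complement 32 (gene RGCC). Cells from whole minced brains without meninges were grown for 2 weeks in serum, shaken to remove less adherent cells and serum-starved overnight, and they were then left untreated (control) or treated with 10 ng/ml of TGF-β over 24 h. The 4 groups were control and TGF-β cultures of each genotype, each with 2 biological replicates, and which pups went into each culture is not given in the sources used here. The comparisons ask how TGF-β changes the transcripts of each genotype, and whether they differ without RGC-32.

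Aggrecan, brevican, neurocan and versican are the lecticans, core proteins that carry chondroitin sulfate chains, bind hyaluronan at one end and tenascins at the other, and so build the pericellular matrix of the brain. Reactive astrocytes deposit this matrix around lesions of the central nervous system, where its sulfated chains restrain the growth of axons and the differentiation of oligodendrocyte precursors. TGF-β is among the signals released at such lesions that are known to act on astrocyte matrix genes.

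Total counts ran from 14920561 to 18956038 per library. Levels are given as CPM, read counts scaled to TMM-normalized library totals. RGCC, the targeted gene, had 80 and 94 counts in WT control, 215 and 362 in WT TGF-β, 61 and 28 in KO control and 64 and 26 in KO TGF-β, so each KO library was below each WT library and none was at 0. Among defining markers, the astrocyte genes GFAP and AQP4 averaged 1659 and 1031 CPM in WT control. SNAP25, RBFOX3 and MOG, which mark mature neurons and myelinating oligodendrocytes, have no entry in the count table. Other genes of the same marker lists were present, named after their values were seen. The neuronal genes MAP2 and STMN2 averaged 188 and 99.1 CPM in WT control, and the oligodendrocyte lineage genes OLIG1 and CNP 156 and 138 CPM. The microglial genes CSF1R and CX3CR1 averaged 284 and 162 CPM and the fibroblast collagen gene COL1A1 1696 CPM in the same group. The cultures thus held transcripts of genes listed for other cell types, and which cells made them was not tested. The study reported that nearly all isolated cells expressed GFAP. Past the thresholds given below, 1 of 10 microglial genes and 1 of 5 tested neuronal genes rose with TGF-β in each genotype. Of 6 tested endothelial genes, 2 rose and 1 fell in WT, and 1 rose and 2 fell in KO. Over all genes tested, 7.72% rose and 5.65% fell in WT, and 6.61% rose and 4.93% fell in KO. In bulk RNA, fewer cells of a type and less RNA per cell cannot be told apart.

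VCAN (ENSMUSG00000021614.16, chr13:89655312-89742509 on the minus strand in GRCm38, the build the submitters' notes name as mm10) has 9 transcripts in GENCODE M21. They differ in a pair of long exons that encode the regions to which chondroitin sulfate is attached, chr13:89688285-89693501 (5217 bases) and chr13:89702918-89705797 (2880 bases). Transcript Vcan-203 holds both, Vcan-206 only the longer, Vcan-202 only the shorter and Vcan-201 neither, and a count per gene does not separate them. The study's own PCR primers for Vcan, given here because VCAN was the only one of the 8 genes that any setting called between genotypes, both lie in the first exon, upstream of the coding sequence, at chr13:89742458-89742477 and chr13:89742152-89742171. They are shown 5′ to 3′ in lower case.
Vcan forward: agctacggagctcttcagga
Vcan reverse: agatcacataggaagcgcgg
Both primers matched 1 of the 9 annotated transcripts, Vcan-203, with 326 bases from end to end, and the reverse primer alone matched 4 others.

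The 250 bases before the RefSeq transcription start are shown for the genes whose counts rose past the thresholds in at least one genotype, VCAN (chr13:89742513-89742762, minus strand), TNC (chr4:64047016-64047265, minus strand) and TNR (chr1:159523519-159523768, plus strand), all in GRCm38.p6. They were searched on both strands for CAGAC, the short DNA element that SMAD proteins, the transcription factors downstream of TGF-β receptors, are known to bind, and for TGANTCA, the element of AP-1 factors. The letters of these motifs do not overlap each other. Capitals mark a match, and sequences are from RefSeq, 5′ to 3′ on the strand of the gene.
VCAN: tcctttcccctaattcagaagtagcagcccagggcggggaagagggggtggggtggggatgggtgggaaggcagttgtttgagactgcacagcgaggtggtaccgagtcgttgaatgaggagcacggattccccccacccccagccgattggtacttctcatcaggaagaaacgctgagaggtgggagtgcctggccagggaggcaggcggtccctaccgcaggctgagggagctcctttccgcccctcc
TNC: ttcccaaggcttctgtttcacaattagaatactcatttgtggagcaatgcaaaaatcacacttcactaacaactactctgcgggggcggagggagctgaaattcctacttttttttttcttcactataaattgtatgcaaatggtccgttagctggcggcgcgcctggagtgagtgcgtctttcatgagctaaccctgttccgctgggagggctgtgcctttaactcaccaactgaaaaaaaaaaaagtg
TNR: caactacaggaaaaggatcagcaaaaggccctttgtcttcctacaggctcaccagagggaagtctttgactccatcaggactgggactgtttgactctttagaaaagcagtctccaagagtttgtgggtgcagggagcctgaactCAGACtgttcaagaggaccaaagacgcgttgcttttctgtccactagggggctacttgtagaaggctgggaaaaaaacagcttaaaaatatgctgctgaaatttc
TNR held 1 match to CAGAC, and the windows of VCAN and TNC held none. A second RefSeq start of TNC lies 79 bases further into the gene, and its window held 1 match. Of 32851 windows of 250 bases before a RefSeq start, 42.2% held CAGAC and 6.75% TGANTCA. Windows were found for 7 of the 8 genes, all but CSPG5. NCAN also held 1 match to CAGAC, ACAN, BCAN and PTPRZ1 held none, and no window of the 7 genes held TGANTCA. A match is a description of the letters and not of binding.

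VCAN and TNC were the most strongly raised of the 8 genes past the thresholds in both genotypes, BCAN fell in both, and TNR rose in WT. A gene was called changed at an absolute log2 fold change (log2FC) no smaller than 0.6 and a Benjamini-Hochberg adjusted p under 0.05 over the 13509 genes in edgeR's quasi-likelihood test, with the standard error (SE) derived from the test statistic. In WT, 3 of the 8 genes rose and 1 fell, where 7.72% of all genes tested rose and 5.65% fell. In KO, 2 of the 8 rose and 1 fell, where 6.61% of all genes rose and 4.93% fell. The direction that holds more of all genes depends on the scaling, since upper quartile normalization gave 857 genes up and 1055 down in WT, against 1043 and 763 here, and 747 and 895 in KO, against 893 and 666. The counts for the 8 genes were the same under that scaling.

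**Figure D1:**
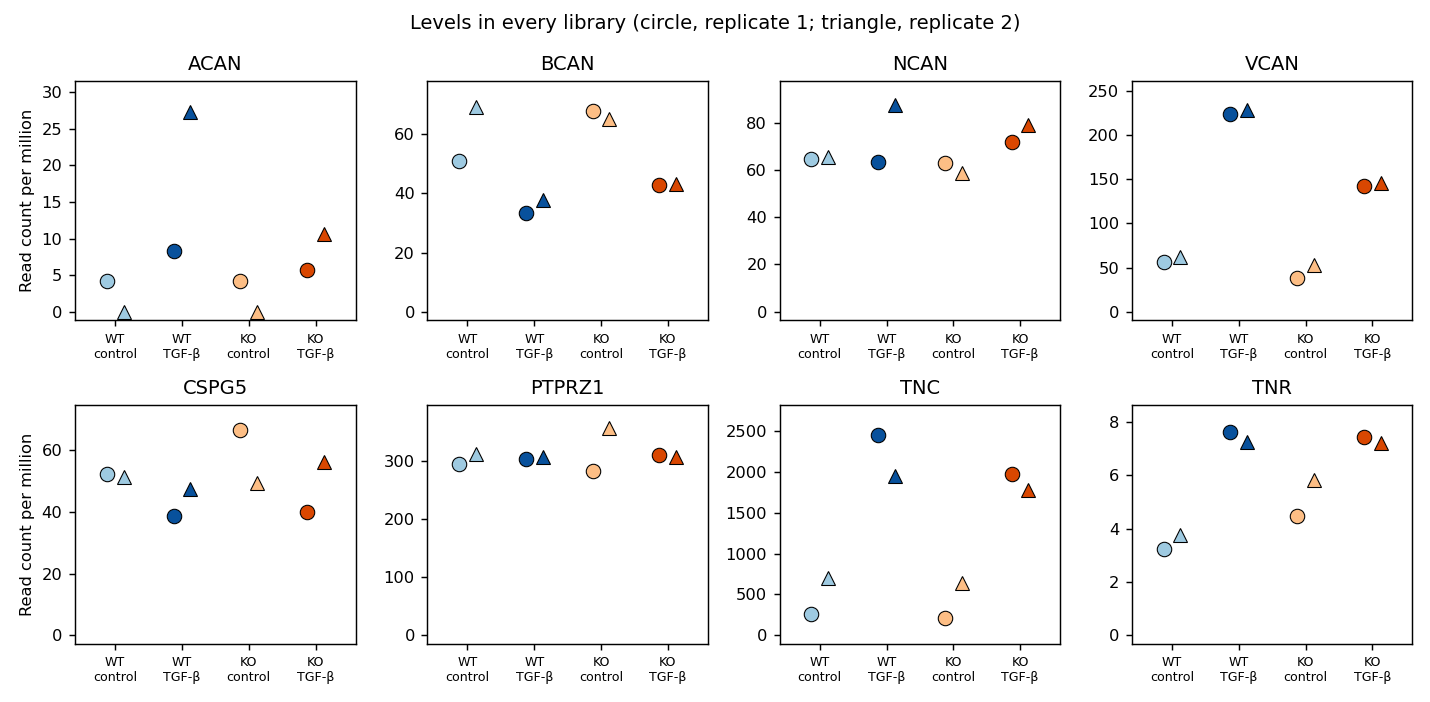
CPM (linear axis from 0) of the 8 genes in each of the 8 libraries, by group, with circles for replicate 1 and triangles for replicate 2. VCAN, TNC and TNR lie above the control libraries after TGF-β in both genotypes and BCAN below, while TNC and ACAN differ between the 2 control replicates of each genotype.

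Versican, the lectican that is widely expressed outside neurons and is made by many cells in response to TGF-β, was at 55.8 and 61.6 CPM in the WT control libraries and at 224 and 228 CPM in WT TGF-β. In KO it was at 38.1 and 52.3 CPM in control and at 142 and 145 CPM in TGF-β. In both genotypes the lower of the TGF-β libraries was therefore well above the higher of the control libraries. The VCAN change was 3.85-fold in WT (log2FC 1.95, SE 0.13, adjusted p = 0.000122) and 3.18-fold in KO (1.67, SE 0.13, adjusted p = 0.000213). It was called in both genotypes under all 13 alternatives in which each gene was refitted, with a log2FC between 1.47 and 2.00 for WT cells and between 1.16 and 1.92 for KO cells.

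Tenascin-C, a multi-armed glycoprotein without chondroitin sulfate that astrocytes make during development and after injury, had the highest group means of the 8 transcripts. In control replicate 1, however, PTPRZ1 was above TNC, at 294 CPM in WT and 283 CPM in KO. TNC was at 261 and 699 CPM in WT control and at 2453 and 1952 CPM in WT TGF-β. In KO it was at 207 and 641 CPM in control and at 1973 and 1781 CPM in TGF-β. The groups did not overlap, but control replicate 2 was 2.68 times control replicate 1 in WT and 3.10 times in KO, so the size of the TNC change depends on the control libraries more than that of VCAN. Over both replicates, TNC rose 4.59-fold in WT (log2FC 2.20, SE 0.57, adjusted p = 0.0212) and 4.43-fold in KO (2.15, SE 0.57, adjusted p = 0.0260). Leaving out both control libraries numbered 1, an alternative added after the values were seen, gave 3.13-fold in WT and 2.89-fold in KO. Leaving out both numbered 2 gave 8.45-fold and 9.08-fold. Each of these fits kept 1 control library per genotype, so the difference between the control replicates did not enter its spread. Leaving out a single library ended the call in WT without control replicate 1 (adjusted p = 0.0735), TGF-β replicate 1 (adjusted p = 0.0693) or TGF-β replicate 2 (adjusted p = 0.0569). In KO the same 3 omissions ended it, with adjusted p = 0.0846, adjusted p = 0.0826 and adjusted p = 0.0726. Without control replicate 2 the log2FC rose to 3.06 in WT and 3.18 in KO. An opposite-strand transcript, 8030451A03Rik, has 2 exons that overlap those of TNC by 104 and 72 bases, and unstranded reads within these stretches could come from either gene.

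Tenascin-R, a relative of tenascin-C that is made mainly by oligodendrocytes and some neurons and binds the lecticans of perineuronal nets, was scarce, with 50 to 138 counts per library. It was at 3.22 and 3.76 CPM in WT control and at 7.63 and 7.23 CPM in WT TGF-β. In KO it was at 4.47 and 5.80 CPM in control and at 7.44 and 7.20 CPM in TGF-β. The TGF-β libraries of both genotypes thus reached the same level, while the control libraries of KO lay above those of WT. TNR rose 2.12-fold in WT (log2FC 1.09, SE 0.17, adjusted p = 0.00295), and its 1.42-fold difference in KO was not called (0.51, SE 0.17, adjusted p = 0.0535). The study had placed TNR among the genes raised by TGF-β only in WT on these same samples, so these calls are not independent of its list. On FPKM values with a pseudocount of 1, a scale that understates changes of scarce genes, the WT value was 0.31 and under the fold threshold. The interaction of genotype and TGF-β for TNR was 0.58 on the log2 scale (SE 0.24, adjusted p = 1.00), so a different response of the genotypes was not shown. Without KO control replicate 2 the KO value was 0.71 with an adjusted p = 0.0443, it was also called with both control libraries numbered 2 left out (adjusted p = 0.0467), and the 13 settings spanned adjusted p = 0.0443 to adjusted p = 0.253. The last exons of TNR overlap the antisense gene Gm38039 by 105 and 338 bases, and reads within these stretches cannot be separated without strand. Of 9 tested oligodendrocyte lineage genes, 2 rose and 2 fell in each genotype, and MOG has no entry. Their sum was 394 and 383 CPM in WT control, 548 and 632 CPM in WT TGF-β, 403 and 404 CPM in KO control and 471 and 591 CPM in KO TGF-β. Without CSPG4 the other 8 summed to 356 and 358 CPM in WT control, 291 and 330 CPM in WT TGF-β, 370 and 380 CPM in KO control and 318 and 371 CPM in KO TGF-β, so the higher sum with TGF-β rested on CSPG4. Their part in the TNR values was not tested.

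Brevican, the brain-specific lectican of astrocytes and maturing oligodendrocytes, was the gene that fell. It was at 50.8 and 69.1 CPM in WT control and at 33.5 and 37.7 CPM in WT TGF-β. In KO it was at 67.8 and 65.0 CPM in control and at 42.9 and 43.2 CPM in TGF-β. Each TGF-β library was below each control library of its genotype, and the control libraries of WT were spread more widely than the others. BCAN fell by 0.76 on the log2 scale in WT (SE 0.13, adjusted p = 0.00468) and by 0.62 in KO (SE 0.13, adjusted p = 0.0113). Both values are close to the fold threshold of 0.6. The WT call ended without control replicate 2, where BCAN fell by 0.53 (adjusted p = 0.00922). The KO call ended without TGF-β replicate 1 (adjusted p = 0.0613) or replicate 2 (adjusted p = 0.0573). Some markers of ependymal cells and of astrocytes also fell in the same libraries. Of 9 tested ependymal genes, 8 fell in WT and 5 in KO, and their sum went from 405 and 472 CPM in WT control to 284 and 254 CPM in WT TGF-β, and from 435 and 488 CPM to 307 and 317 CPM in KO. Of 10 astrocyte genes, 2 fell in WT and 1 in KO, with a sum of 4396 and 4632 CPM in WT control against 3565 and 3440 CPM in WT TGF-β, and of 5071 and 5781 CPM against 4263 and 4555 CPM in KO. The astrocyte gene GJA1, named after its values were seen, was higher with TGF-β, under the fold threshold (0.35 in WT and 0.33 in KO). The part of these markers in the BCAN values was not tested.

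Aggrecan, the large lectican of cartilage and perineuronal nets, had few counts and the widest spread of the 8 genes. It had 64 and 0 counts in WT control, 150 and 427 in WT TGF-β, 66 and 0 in KO control, and 84 and 161 in KO TGF-β. Control replicate 2 was at 0 counts in both genotypes, although its library was not smaller than that of control replicate 1. All 4 TGF-β libraries were above all 4 control libraries. Read against a floor of 3 counts per library, ACAN was at least 46.3-fold and at least 152-fold higher in the WT TGF-β libraries than in WT control replicate 2, and at least 31.7-fold and at least 59.9-fold higher in KO. Control replicate 1, at 4.13 CPM in WT and 4.21 CPM in KO, lay much nearer to the TGF-β libraries, at 8.29 and 27.3 CPM in WT and at 5.63 and 10.6 CPM in KO. ACAN was not called in either genotype (log2FC 3.13 for WT, SE 1.19, adjusted p = 0.0779, and 1.99 for KO, SE 1.26, adjusted p = 0.271). The WT value was called without control replicate 1 (adjusted p = 0.0400), where the only remaining control library is at 0, and on the FPKM values (adjusted p = 0.0315), and the 13 settings spanned adjusted p = 0.0315 to adjusted p = 0.504. With both control libraries numbered 1 left out, so that each genotype kept a lone control library at 0, ACAN was called in WT (adjusted p = 0.0182) and in KO (adjusted p = 0.0434).

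Neurocan, the lectican of the developing brain, CSPG5, a transmembrane proteoglycan of the same tissue, and PTPRZ1, a receptor of glial progenitors and astrocytes for pleiotrophin, were not called in any comparison. NCAN was at 64.5 and 65.4 CPM in WT control and 63.2 and 87.3 CPM in WT TGF-β, and at 62.9 and 58.8 CPM in KO control and 71.6 and 79.1 CPM in KO TGF-β. The NCAN groups overlapped in WT and not in KO, where the log2FC was 0.31 (SE 0.14, adjusted p = 0.127), and in WT it was 0.21 (SE 0.13, adjusted p = 0.269). CSPG5 was at 52.2 and 51.2 CPM in WT control and 38.7 and 47.2 CPM in WT TGF-β, and at 66.4 and 49.2 CPM in KO control and 39.9 and 56.1 CPM in KO TGF-β. Its log2FC was -0.27 in each genotype (SE 0.19, WT adjusted p = 0.304, KO adjusted p = 0.320), with overlap in KO. PTPRZ1 was at 294 and 312 CPM in WT control, 303 and 307 CPM in WT TGF-β, 283 and 357 CPM in KO control, and 311 and 307 CPM in KO TGF-β. The PTPRZ1 log2FC was 0.01 in WT and -0.05 in KO (SE 0.10 in each), the smallest of the 8 genes, and its sign in WT turned under upper quartile scaling.

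**Figure D2:**
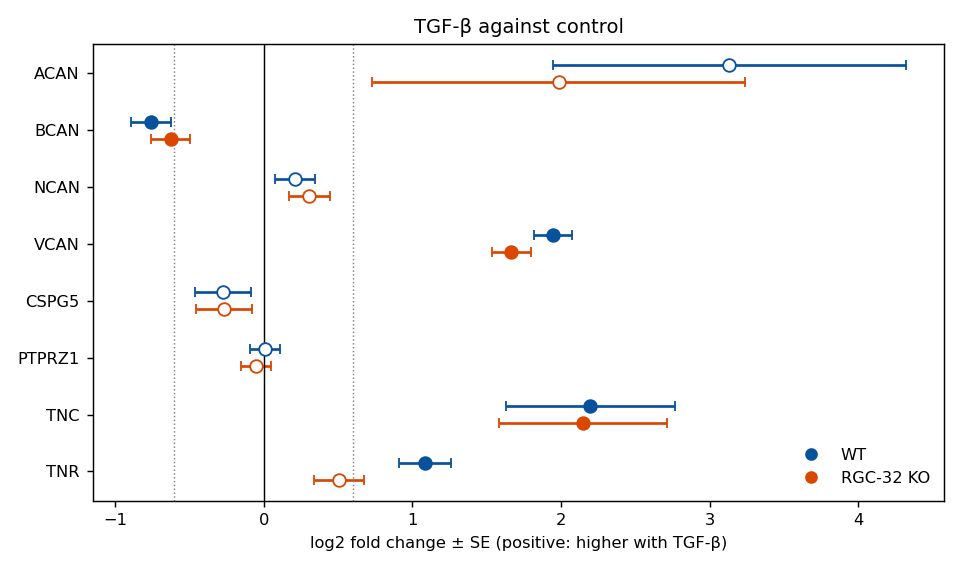
Log2FC of TGF-β against control (horizontal axis, positive when higher with TGF-β) for the 8 genes in WT (blue) and KO (orange), with bars of 1 SE from edgeR, filled points for genes past both thresholds and dotted lines at 0.6 and -0.6. VCAN and TNC are filled on the right in both genotypes, TNR only in WT at 1.09 against 0.51, and BCAN on the left in both, while ACAN has the longest bars.

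Levels of different genes were compared per length, as FPKM, the deposited estimate of fragments scaled for transcript length and library size. In WT control the means ran from TNC (51.1 ± 27.8 FPKM, SD, n = 2) and PTPRZ1 (41.9 ± 2.43) through BCAN (15.1 ± 2.39), CSPG5 (12.4 ± 0.104), NCAN (7.92 ± 0.181) and VCAN (5.21 ± 0.145) to TNR (0.542 ± 0.121) and ACAN (0.240 ± 0.340). TNC and PTPRZ1, and TNR and ACAN, overlapped in their 2 libraries, and the other neighbours in this order did not. KO control had the same order, with TNC at 46.0 ± 28.7 and PTPRZ1 at 44.9 ± 6.49 FPKM, and here TNC and PTPRZ1 were the only neighbours that overlapped.

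After TGF-β the order changed in the middle. In WT TGF-β, TNC stood at 205 ± 51.1 FPKM (n = 2), PTPRZ1 at 40.3 ± 0.0929 and VCAN, now the third, at 16.3 ± 1.15, ahead of CSPG5 (9.61 ± 1.18), BCAN (8.90 ± 0.422) and NCAN (8.53 ± 1.35), which overlapped one with the next. ACAN (1.83 ± 1.16) and TNR (0.908 ± 0.0479) remained last. In KO TGF-β, VCAN was also the third, at 11.1 ± 0.564 FPKM, but its libraries overlapped those of CSPG5 (10.4 ± 2.36), which overlapped those of BCAN (10.2 ± 0.609). TNC made up 28.2% and 45.0% of the summed FPKM of the 8 genes in the WT control libraries and 74.1% and 65.7% in WT TGF-β. In KO its share was 23.0% and 41.9% in control and 71.8% and 64.6% in TGF-β. Among all 18644 genes with an FPKM value, TNC ranked 2261 and 886 in WT control and 180 and 292 in WT TGF-β. The sum over the 8 genes was 112 and 157 FPKM in WT control and 326 and 258 FPKM in WT TGF-β, and nearly all of that rise was TNC.

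**Figure D3:**
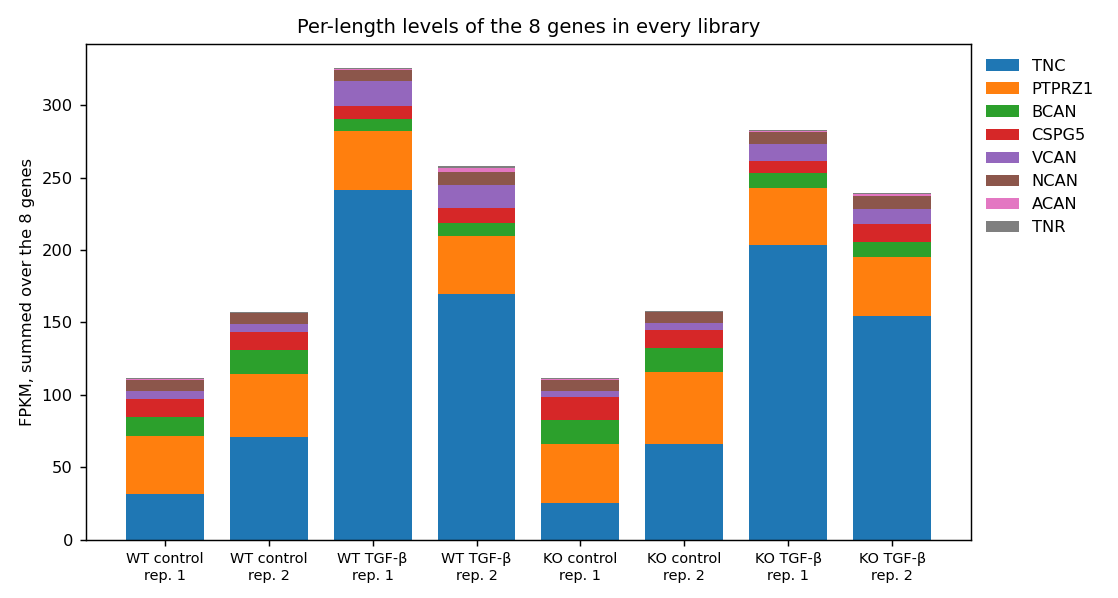
Stacked FPKM (linear axis from 0) of the 8 genes in each library, where each bar is 1 library and each colour 1 gene. TNC takes 65.7% and 74.1% of the bar in the WT TGF-β libraries, PTPRZ1 stays near 40 FPKM in most libraries, and ACAN and TNR are thin bands at the top.

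Between genotypes, VCAN was the gene that differed most clearly, and no call was made. Under TGF-β, the WT libraries (224 and 228 CPM) were 1.57-fold above the KO libraries (142 and 145 CPM), with a log2 difference of 0.65 (SE 0.12, adjusted p = 0.129). In edgeR, 0 of the 8 genes were called in either direction, where 0.0222% of all genes were called higher and 0.0222% lower in WT, and 1576 of the 13509 genes had an unadjusted p under 0.05. DESeq2 called VCAN higher in WT (adjusted p = 0.000225), and edgeR did so without KO control replicate 1 (adjusted p = 0.0438) or replicate 2 (adjusted p = 0.0463), libraries that enter this comparison only through the shared spread. Over all alternatives the VCAN adjusted p ran from 0.000225 to 0.729, with a log2 difference from 0.52 to 0.68. Without TGF-β, VCAN was also higher in each WT library than in each KO library (log2 difference 0.38, SE 0.13, adjusted p = 0.675). The interaction for VCAN was 0.28 (SE 0.18, adjusted p = 1.00), so a larger response in WT was not shown. The study had listed VCAN among the genes significantly higher in WT than in KO under TGF-β on these same samples. Its selection is therefore not independent of these values. By PCR the study found Vcan higher in WT than in KO after TGF-β, without statistical significance.

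The summed level of the fibroblast markers, like VCAN, was higher with TGF-β in both genotypes and higher in WT than in KO. The 9 tested of 10 such genes summed to 4297 and 5509 CPM in WT control, 8973 and 10113 CPM in WT TGF-β, 3710 and 3521 CPM in KO control, and 6819 and 6671 CPM in KO TGF-β. Much of the sum came from collagen genes, with COL1A1, COL1A2 and COL3A1 averaging 1696, 1561 and 966 CPM in WT control. In WT TGF-β they averaged 4217, 3301 and 1335 CPM. In KO they went from 1257, 1033 and 752 CPM to 2893, 2209 and 1022 CPM. The higher sum with TGF-β thus rested on these collagen genes. With TGF-β, 4 of the 9 rose and 1 fell in WT, and 4 rose in KO, led by COL1A1 (log2FC 1.31 in WT and 1.20 in KO). DCN (-0.62 in WT and -0.36 in KO), FOXC1 (-0.42 and -0.29), LUM (-0.32 and -0.17) and TBX18 (-0.13 and -0.09) were lower with TGF-β. Apart from COL1A1 and LUM, these genes were named after their values were seen. DPT has no entry in the count table, and LUM, another defining marker, was at 2.75 to 5.07 CPM. Between genotypes none of the 9 was called in edgeR. Their part in the VCAN values was not tested.

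Without TGF-β, 0 of the 8 genes were called, where 0.00740% of all genes were called higher and 0.0296% lower in WT, and 924 genes had an unadjusted p under 0.05. TNR had the largest difference of the 8 genes, with WT below KO by a log2 difference of -0.56 (SE 0.18, adjusted p = 0.637) and no overlap between the groups. Under TGF-β the TNR difference was 0.02 (SE 0.16). BCAN was lower in WT than in KO under TGF-β without overlap (log2 difference -0.28, SE 0.14, adjusted p = 0.481), and in control the groups overlapped. TNC differed by 0.23 under TGF-β and 0.18 without it, each with a SE of 0.54 or 0.55, so differences of that size were not detectable here. ACAN was 1.12 higher in WT under TGF-β on the log2 scale (SE 0.99, adjusted p = 0.713), with overlap. In the test of a different response by genotype, edgeR called 0 of the 8 genes and 0.00% of all genes, 381 genes had an unadjusted p under 0.05, and DESeq2 called 0 as well.

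**Figure D4:**
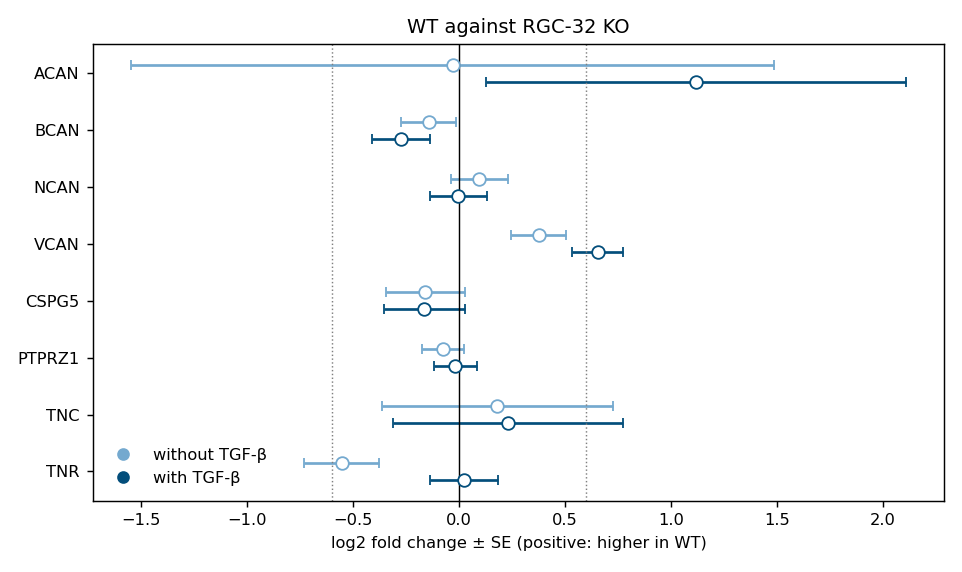
Log2 difference of WT against KO (horizontal axis, positive when higher in WT) for the 8 genes without (light) and with (dark) TGF-β, with bars of 1 SE from edgeR and dotted lines at 0.6 and -0.6. All points are open because none passed both thresholds, with VCAN at 0.38 and 0.65 and TNR at -0.56 and 0.02.

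Beside the 8 genes, other core proteins of the same matrix were followed as a list of 4. The counts for this list and those after it stand beside the shares over all genes tested. These were 7.72% up and 5.65% down in WT, and 6.61% up and 4.93% down in KO. Of the 4 core proteins, 1 rose in WT, and 1 rose and 1 fell in KO. Their median log2FC was 0.29 in WT and 0.24 in KO against 0.00 over all genes tested in each. CSPG4, the NG2 proteoglycan of oligodendrocyte precursors and pericytes, rose from 38.5 and 25.4 CPM to 257 and 302 CPM in WT (log2FC 3.13, SE 0.25, adjusted p = 0.000221) and from 33.9 and 24.1 CPM to 153 and 220 CPM in KO (2.69, adjusted p = 0.000446). PDGFRA, which marks the same precursors, fell in both genotypes (by 0.98 and 0.71 on the log2 scale), and SOX10, another marker of the lineage, was at 0.119 to 1.01 CPM. TNXB, a tenascin of connective tissue, fell in KO by 1.08 on the log2 scale from 2.23 and 2.01 CPM (adjusted p = 0.0380) and was not called in WT (-0.60, adjusted p = 0.170). CD44, the cell-surface receptor of hyaluronan, had a log2FC of 0.37 in both genotypes, under the fold threshold.

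Hyaluronan, the sugar polymer to which lecticans are anchored, is made by the HAS enzymes, and link proteins of the HAPLN family fasten lecticans to it. Of these 7 genes, 3 could be tested. HAS2 rose 2.16 on the log2 scale in WT (SE 0.14, adjusted p = 0.000124) and 1.89 in KO (adjusted p = 0.000208), from 5.93 and 8.06 CPM in WT control to 29.4 and 33.4 CPM. HAPLN4, a link protein that binds brevican, was called in KO only (1.37, adjusted p = 0.0263, against 0.70, adjusted p = 0.173 in WT), at no more than 2.48 CPM in any library, and its interaction was not called. HAPLN1 was at 0.651 to 2.75 CPM and was not called.

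Receptors and ligands of the matrix were mixed in direction. Of 19 tested, 6 rose and 3 fell in WT and 4 rose and 2 fell in KO, with median log2FC values of 0.12 and 0.09. The integrin chains ITGB3 (2.11 in WT, SE 0.17, and 2.05 in KO) and ITGAV (0.90 and 0.81), which pair into a receptor of tenascin-C and other matrix proteins, rose in both genotypes. NCAM1, an adhesion molecule bound by neurocan, rose 1.68 in WT and 1.44 in KO, and the heparan sulfate proteoglycan SDC3 rose 0.83 and 0.82. ITGA8, an integrin chain that also recognizes tenascin-C, fell by 0.84 in WT and by 0.69 in KO. The others that fell, named after their values were seen, were PTN (pleiotrophin, the ligand of PTPRZ1), which fell by 0.81 in WT and 0.67 in KO, and the tenascin-R and PTPRZ1 partner CNTN1, which fell by 0.63 in WT and had -0.58 in KO. Of the receptors of chondroitin sulfate chains, PTPRS was at 0.41 (adjusted p = 0.00299) in WT and PTPRF at 0.12, both under the fold threshold. The Nogo receptor RTN4R, scarce at 21 to 45 counts per library, rose in WT (0.81, adjusted p = 0.0329). RTN4R was at 0.14 in KO (adjusted p = 0.724), and its interaction was not called. In the same list, RTN4RL1 (-0.08 in WT and -0.40 in KO) and PTPRD (-0.07 and -0.28) were not called. These receptors were also named after their values were seen.

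The proteases that cleave lecticans moved in both directions. Of 8 genes with their inhibitor, 3 rose and 1 fell in each genotype, and the median log2FC was -0.14 in WT and in KO. ADAMTS4, an aggrecanase that cuts aggrecan, brevican and versican, rose from 13.8 and 26.4 CPM to 118 and 105 CPM in WT (2.47, SE 0.29, adjusted p = 0.000859) and 2.13 in KO (adjusted p = 0.00195). ADAMTS8 rose 1.97 and 2.18. ADAMTS15, another versican-cleaving enzyme, fell by 1.68 and 1.58. TIMP3, the tissue inhibitor that blocks ADAMTS enzymes, rose from 1462 and 1399 CPM to 4231 and 4586 CPM in WT (1.62, SE 0.11, adjusted p = 0.000143) and 1.53 in KO.

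Enzymes that build and sulfate the chondroitin chains mostly moved little, and those called rose. Of 21 tested, 6 rose and none fell in each genotype, and the median log2FC was 0.29 in WT and 0.37 in KO. The first xylose is added by XYLT1 or XYLT2. XYLT1 rose 1.58 in WT and 1.17 in KO. XYLT2, named after its values were seen, was not called (-0.28 in WT and -0.25 in KO). In WT control XYLT2 averaged 62.3 CPM and XYLT1 6.81 CPM. The chain polymerases CHSY1 (1.14 and 1.12) and CHSY3 (2.73 and 3.08) rose, CHSY3 from 0.447 to 2.27 CPM over the control libraries. CHST11, a chondroitin 4-O-sulfotransferase, rose from 104 and 122 CPM to 322 and 337 CPM in WT (1.54, SE 0.09, adjusted p = 8.94e-05) and 1.58 in KO. UST, a uronyl 2-O-sulfotransferase, rose 1.21 and 1.08. The sixth gene, named after its values were seen, was the 6-O-sulfotransferase CHST3 in WT (0.89, adjusted p = 0.0135) and the dermatan sulfate epimerase DSEL in KO (0.79, adjusted p = 0.000824). CHST3 was at 0.55 in KO (adjusted p = 0.0847) and DSEL at 0.52 in WT (adjusted p = 0.00351), both under the fold threshold. None of the genes in these 5 lists was called between genotypes with or without TGF-β, or in the interaction.

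**Figure D5:**
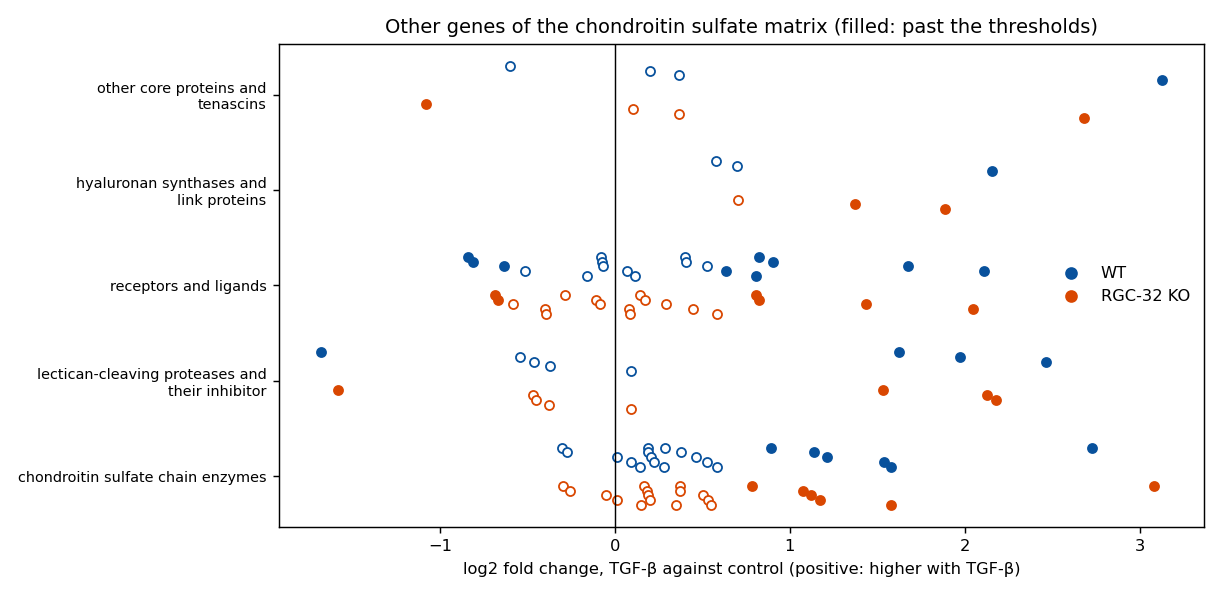
Log2FC of TGF-β against control for the tested genes of the 5 lists, with 1 point per gene for WT (blue) and KO (orange), filled where past both thresholds and spread vertically only for legibility. CSPG4, HAS2 and ADAMTS4 lie furthest right in WT in their lists at 3.13, 2.16 and 2.47, and ADAMTS15 furthest left of all at -1.68.

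As a description of which genes had the most similar pattern, log2 CPM over the 8 libraries was correlated with that of 10483 genes with a mean of at least 10 CPM. All pairs share the same libraries, treatment and depth, so high values are common, and no p is given. Among the genes closest to TNC were ALDH1A3 (Pearson r = 0.994) and LIF (r = 0.992). VCAN was closest to ZBTB38 (r = 0.999), D030025P21RIK (r = 0.997) and NOTCH3 (r = 0.997). ACAN, with its 2 libraries at 0, was closest to CRISPLD2 (r = 0.991), STRA6 (r = 0.991) and CARD10 (r = 0.982). BCAN was closest to RABL2 (r = 0.991), FAM216A (r = 0.990) and ANAPC2 (r = 0.990), and TNR to KLHL20 (r = 0.985), IKZF5 (r = 0.982) and AHI1 (r = 0.981). Lower values were found for CSPG5 (STARD10, r = 0.978, RAMMET, r = 0.975, TCERG1L, r = 0.954), NCAN (BEX3, r = 0.962, ILK, r = 0.954, KRCC1, r = 0.945) and PTPRZ1 (ATXN7L3B, r = 0.944, XPR1, r = 0.939, ARHGAP5, r = 0.916). Among the 8 genes themselves, VCAN correlated with TNC at r = 0.930 and with BCAN at r = -0.934, again over the same 8 libraries.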

How the data were processed

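The authors aligned unstranded reads with STAR (mm10, per the labels) using VIPER. The deposited read counts are whole numbers per gene symbol for 13937 genes, not normalized. The counting program and annotation are not given in the sources used here. The authors also deposited FPKM values from Cufflinks for 18644 genes, and 2 tables of their own DESeq2 comparisons (fold changes and p-values), which were not used. For the counts edgeR 4.0.16 in R 4.3.3 was used (filterByExpr, TMM, 1 quasi-likelihood model of the 4 groups on all 8 libraries, no block). limma 3.58.1 and DESeq2 1.42.0 gave alternatives. Every p is two-sided. Adjusted p-values of the main fit are over its 13509 genes, and those of an alternative over the genes that alternative tested. The 8 genes and the lists were chosen with earlier results of these data known. Named beside the 8 genes are, of each list, up to 5 genes past the thresholds by the size of the WT change, the defining markers and the 3 closest genes. The text says where others are named. A result that this rule would name is not reported here. Marker lists of astrocytes, the oligodendrocyte lineage, neurons, fibroblasts, microglia, endothelial and ependymal cells were used to check the cultures. Locations are from GENCODE M21 and promoters from RefSeq (GRCm38.p6). Low genes are limited by counting error and all p-values rest on 2 cultures per group. The procedure was tested on simulated data.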

Additional observations from a re-analysis of the deposited data

How the results depend on the processing

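The change of VCAN with TGF-β was called in both genotypes in every setting tried, and no interaction was called in any. Under Bonferroni's correction VCAN alone was called with TGF-β, so 1 of the 8 genes rose and 0 fell in each genotype. DESeq2 gave 1 gene, VCAN, higher in WT than in KO under TGF-β. Leaving out both control libraries numbered 1, or both numbered 2, was chosen after the values were seen. Each such fit kept 1 control library per genotype, so its spread came only from the TGF-β pairs. The VCAN log2 difference under TGF-β was 0.66 and 0.65 there, against 0.65 in the main fit, while its SE went from 0.12 to 0.05. Without both controls numbered 2, BCAN fell by 0.52 in WT, under the fold threshold, and TNR rose 0.71 in KO. A filter of at least 10 counts in every library removed ACAN.

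A fit with the replicate number as a replicate block gave the same calls, with TNC at 2.38 (adjusted p = 0.0126) in WT and TNR at 0.51 (adjusted p = 0.0875) in KO on the log2 scale. The numbers are not said to mark a shared litter or day, and the correlation of deviations between same-numbered libraries was 0.49 for the controls of the 2 genotypes, 0.25 for their TGF-β libraries and from -0.51 to -0.34 between control and TGF-β.

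When each library was left out in turn (a lone remaining library being taken to vary like the other groups), the genes lower with TGF-β ranged from 0 to 1 in each genotype, those higher in KO from 1 to 3, and those higher in WT than KO under TGF-β from 0 to 1. Values whose sign turned, as log2 fold changes, were with TGF-β in WT NCAN (-0.055 to 0.43) and PTPRZ1 (-0.034 to 0.032), and in KO PTPRZ1 (-0.23 to 0.13). Between genotypes under TGF-β they were NCAN (-0.26 to 0.22), CSPG5 (-0.40 to 0.11), PTPRZ1 (-0.040 to 0.0019) and TNR (-0.0074 to 0.049), and without TGF-β ACAN (-8.05 to 8.03, fits against a control library at 0 and no bound), BCAN (-0.38 to 0.058), CSPG5 (-0.36 to 0.070), PTPRZ1 (-0.23 to 0.10) and TNC (-0.70 to 1.22). None of these was called. PTPRZ1 in WT was also -0.079 with upper quartile scaling and -0.055 on FPKM with a pseudocount of 1, where the genotype difference under TGF-β was 0.0048 for PTPRZ1 and -0.048 for TNR. With a pseudocount of 0.1 the median over all genes shifted to -0.13 in both genotypes. The causes were not tested. Depth limits ACAN and TNR, whose highest library counts were 427 and 138. Over all genes, up and down with TGF-β, 1043 and 763 in WT and 893 and 666 in KO became 2514 and 1936, and 2243 and 1592, without a fold threshold, 143 and 31, and 119 and 22, under Bonferroni's correction, and 519 and 586, and 462 and 578, on FPKM with a pseudocount of 1. With 0.1 they were 776 and 1270, and 710 and 1257. DESeq2 called 22 genes higher and 12 lower in WT than in KO under TGF-β, against 3 and 3.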
